A study of Mus musculus with 6 samples.

Results

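The aldehyde dehydrogenases examined here are Aldh1b1, Aldh2, Aldh1a2, Aldh3a2, Aldh3b1, Aldh4a1, Aldh6a1, Aldh7a1, Aldh9a1 and Aldh18a1, 10 of the 54532 genes in the deposited table. They were taken by gene name from the 21 genes in the table whose name starts with Aldh. Members were chosen by name with their FPKM in WT and PGRN KO already known, so the differences of these 10 genes are described with their errors and were not tested. Transcripts were measured by RNA sequencing in 3 wild type (WT) libraries, replicates 1, 2 and 3, and in 3 progranulin knock out (PGRN KO) libraries, replicates 4, 5 and 6. Both groups were C57BL/6J macrophages, taken per the labels from the mouse peritoneal cavity, plated at 2000000 cells per well and challenged for 6 hours with Candida albicans at a multiplicity of 1 per the labels, while a figure legend of the study gives another ratio for stimulation of this length. All libraries therefore came from cells with the fungus, and no cells without it were analysed here. Ages were not given. According to the study's methods the PGRN KO mice and the WT mice were obtained from different suppliers and were matched for age and sex, so the knocked-out gene and the source of the mice cannot be told apart. Nothing in the labels says whether replicates came from separate mice, so p-values measure only the spread between these libraries, which may be technical.

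The library labels were checked first. Grn, which encodes progranulin, was at 324, 337 and 325 FPKM in WT replicates 1 to 3, against 1, 0 and 1 fragments in PGRN KO replicates 4 to 6. The methods of the study describe marrow-derived macrophages, whereas the labels name the peritoneal cavity. Of 7 macrophage markers all were detected, led by Lyz2 and Cd68. Gata6, the factor that defines large peritoneal macrophages, was at 3.78 to 4.26 FPKM in WT against 3.84 to 5.07 FPKM in PGRN KO, while Timd4 and Alox15 of the same cells were at or below 0.204 FPKM in each library. Libraries held 15996786 to 17551619 counted fragments. PGRN KO replicate 6 stood apart by gene length. The length of a gene and how far that library lay from the mean of all 6 had a Spearman correlation of -0.47 over 8882 genes, and genes are no independent replicates. The same measure was between 0.15 and 0.24 for the remaining libraries. Differences of the members are therefore also given without it.

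Aldehyde dehydrogenases use NAD or NADP to oxidize reactive aldehydes to carboxylic acids. Their substrates come from lipid peroxidation, alcohol, retinol and the breakdown of amino acids and amines, and the enzymes differ in location, with several in mitochondria and others in the cytosol or on membranes. In macrophages the family is known above all for Aldh1a2, whose product retinoic acid is a signal to lymphocytes, and for the removal of aldehydes formed from oxidized lipids.

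The 2 genes with the largest differences between genotypes are shown with the 250 bases before their transcript start, from RefSeq on GRCm38.p6, because they differ in opposite directions. The start sites in the RefSeq table coincide with the gene starts in the deposited table for both. Capitals mark a match to a motif that was searched, and lower case has no match.
Aldh1b1, chr4:45798772-45799021, plus strand: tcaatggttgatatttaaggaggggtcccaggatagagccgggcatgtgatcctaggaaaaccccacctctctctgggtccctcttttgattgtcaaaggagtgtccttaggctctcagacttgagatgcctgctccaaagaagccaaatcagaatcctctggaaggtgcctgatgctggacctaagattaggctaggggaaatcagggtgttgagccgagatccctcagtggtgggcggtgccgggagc
Aldh1a2, chr9:71215539-71215788, plus strand: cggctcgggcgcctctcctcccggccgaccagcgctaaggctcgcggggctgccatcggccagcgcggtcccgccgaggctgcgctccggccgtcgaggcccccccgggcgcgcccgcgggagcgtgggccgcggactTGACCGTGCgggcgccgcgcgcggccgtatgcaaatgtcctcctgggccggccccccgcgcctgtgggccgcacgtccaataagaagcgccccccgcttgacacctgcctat

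The windows differed in base composition. GC made up 53.2% of the Aldh1b1 window and 77.6% of the Aldh1a2 window, and the median over 32851 RefSeq windows of this length was 52.4%. Both strands were searched for 6 motifs. The first was the core of the interferon-stimulated response element, whose letters are not printed here. The others were the antioxidant response element (TGACNNNGC), the AP-1 element (TGANTCA) and the core shared by CLEAR and E-box elements (CACGTG). Also searched were the core of the amino acid response element (TGATGNAA) and the retinoic acid receptor half-site (AGGTCA). TGACNNNGC can match the same bases as TGANTCA or the reverse strand of AGGTCA. In the Aldh1b1 window none of the 6 motifs was found. The Aldh1a2 window held TGACNNNGC once, which 10.2% of all windows hold. Of the 8 members whose windows were searched, the same motif was also found in Aldh9a1, CACGTG in Aldh3a2 and Aldh18a1 (6.02% of all windows) and AGGTCA in Aldh3b1 and Aldh6a1 (14.0% of all windows). RefSeq gives 2 start sites for Aldh6a1, and the match lay before the inner one (84448317) and not before the one nearest the gene start in the deposited table (84451024). For Aldh3a2 the RefSeq start (61267186) lay inside the gene as placed in the deposited table (start at 61267464), and so did its window. No member held the interferon, AP-1 or amino acid motifs, which 2.98%, 6.75% and 3.45% of windows hold. A match of letters is a description and not a binding site.

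To compare the family between genotypes, levels were taken as FPKM (fragments per kilobase of gene model, scaled to library size) and differences as log2(FPKM + 1) of PGRN KO minus WT, a scale that understates the change of genes with low FPKM. In a bulk sample fewer cells with a transcript and less transcript per cell cannot be told apart. For 6 of the 10 genes each library of one group lay beyond the other group, 5 of them higher and 1 lower in PGRN KO. Of the 8 members with a mean of at least 1 FPKM, 4 were higher and 1 lower in this way. Among the 8882 genes with a mean of at least 1 FPKM such separation held for 48.8% (21.2% higher and 27.6% lower). Since the members were chosen with these values known, nothing is read from that share. The median difference of the 8 members with a mean of at least 1 FPKM was 0.27, and it was 0.15 without PGRN KO replicate 6. Over all tested genes the median was -0.03, and -0.04 without that library.

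**Figure D1:**
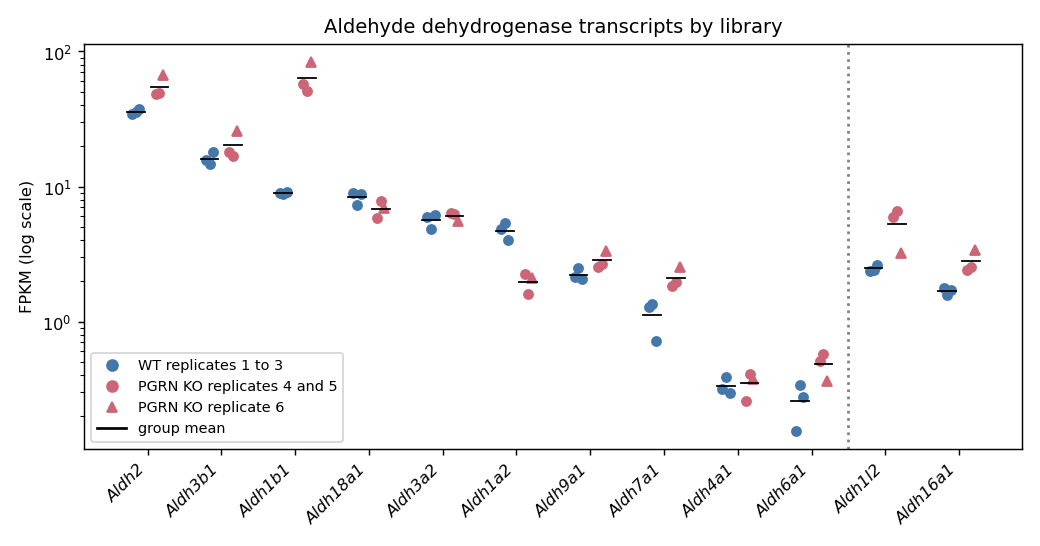
FPKM on a log axis of the 10 members, left of the dotted line in order of their WT mean, and of Aldh1l2 and Aldh16a1 in each library, with circles for WT replicates 1 to 3 and PGRN KO replicates 4 and 5, triangles for PGRN KO replicate 6 and black bars for group means. Aldh1b1 lies between 8.74 and 9.09 FPKM in WT and between 50.7 and 83.0 FPKM in PGRN KO, and Aldh1a2 is lower in each PGRN KO library than in any WT library.

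Aldh1b1 and Aldh2 encode mitochondrial enzymes that both oxidize acetaldehyde and aldehydes from lipid peroxidation. Aldh1b1 (chromosome 4, 45799022 to 45804604, GRCm38) has its entire coding sequence of 1557 bases in 1 exon, whereas the coding sequence of Aldh2, of equal length, is spread over 13 exons. Aldh1b1 was at 9.03, 8.74 and 9.09 FPKM in WT replicates 1 to 3, against 57.0, 50.7 and 83.0 FPKM in PGRN KO replicates 4 to 6. All PGRN KO libraries lay far above the narrow WT range, and replicate 6 was the highest. These levels rested on 297 to 377 fragments per WT library and 2204 to 3297 per PGRN KO library. The difference was 2.67 ± 0.18 (SE, n = 3 against 3), and the mean level in PGRN KO was 7.10 times the WT mean. Without PGRN KO replicate 6 the difference was 2.46.

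Aldh2 (chromosome 5, 121566027 to 121593824) was at 34.4, 35.6 and 37.6 FPKM in WT against 48.3, 48.9 and 66.9 FPKM in PGRN KO. The groups were separate here as well, with replicate 6 again the highest. The difference was 0.58 ± 0.14 (SE), and 0.43 without replicate 6. No 31-base word of the Aldh1b1 or Aldh2 transcripts occurs in annotated transcripts of any other gene. Gm42879 on the opposite strand shares 2.54% of the exonic bases of Aldh2, and its mean was 0.0610 FPKM in WT against 0 in PGRN KO. How fragments from the shared bases were assigned is not known, because neither source says if counting was by strand.

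A ratio of 2 genes within a library does not depend on how libraries are scaled. The ratio of Aldh1b1 to Aldh2 in FPKM was 0.263, 0.245 and 0.242 in WT replicates 1 to 3, against 1.18, 1.04 and 1.24 in PGRN KO replicates 4 to 6. By FPKM, Aldh2 was thus the higher of the 2 in each WT library and Aldh1b1 in each PGRN KO library. The order in PGRN KO rests on the gene models that FPKM divides by, of 5126 bases for Aldh2 and 2298 bases for Aldh1b1. In counted fragments Aldh2 was the higher in PGRN KO replicates 4 to 6 too. It had 4288, 4746 and 5928 fragments there, against 2269, 2204 and 3297 for Aldh1b1. Within the summed FPKM of the 10 genes, Aldh1b1 made up 10.4% to 10.9% in WT and 36.8% to 42.1% in PGRN KO. The sum was 81.0 to 87.2 FPKM in WT against 137.5 to 197.0 FPKM in PGRN KO. With Aldh1b1 left out it was 72.2 to 78.1 and 86.0 to 114.0 FPKM, so the groups were separate without that gene too. Aldh2, which was itself separate between groups, was the largest part of that remaining sum in each library. No sum without both genes was taken, so the remaining sum does not show a difference shared by the other members.

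**Figure D2:**
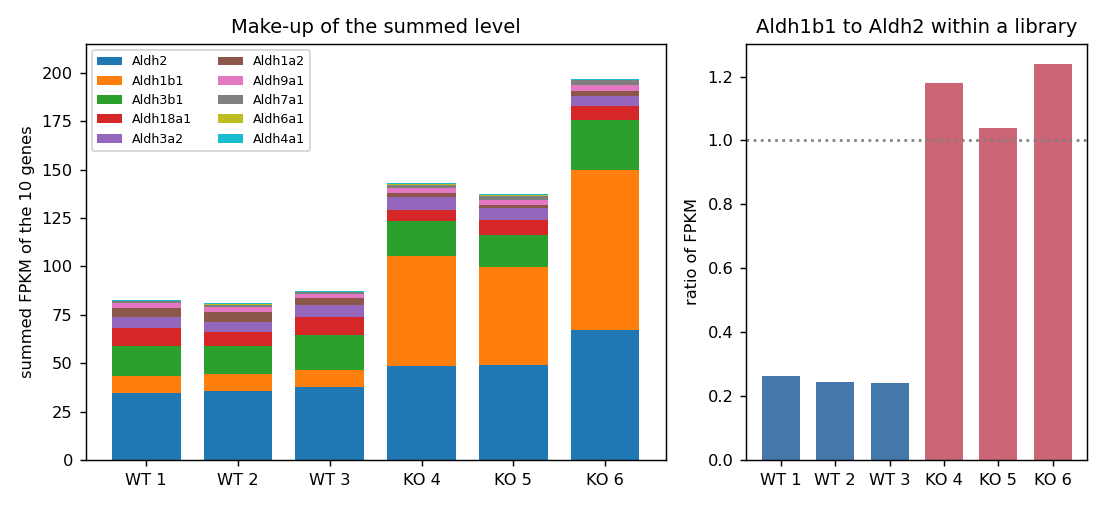
Left, summed FPKM of the 10 genes in each library (KO stands for PGRN KO, and numbers are replicates), with 1 colour for each gene. Right, ratio of the FPKM of Aldh1b1 to that of Aldh2 in each library, with a dotted line at 1, and the ratio is 0.242 to 0.263 in WT and 1.04 to 1.24 in PGRN KO.

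Aldh1a2 encodes the cytosolic retinal dehydrogenase that forms retinoic acid. It lies on chromosome 9 (71215789 to 71296243) and was at 4.83, 5.35 and 3.99 FPKM in WT against 2.24, 1.59 and 2.10 FPKM in PGRN KO. The lowest WT library was above the highest PGRN KO library, which made Aldh1a2 the single member with separate groups in the downward direction. The difference was -0.94 ± 0.13 (SE), the WT mean was 2.39 times the PGRN KO mean, and the difference was -0.98 without PGRN KO replicate 6. The values came from 163 to 183 fragments per WT library and 68 to 88 per PGRN KO library.

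Mesothelial and dendritic cells can also carry Aldh1a2, and their markers were therefore set beside it. The 8 mesothelial markers summed to 0.433 to 0.582 FPKM in WT against 0.119 to 0.359 FPKM in PGRN KO, with Lrrn4 at 0 in all libraries and Upk3b and Wt1 at or below 0.0508 FPKM. Of 6 dendritic cell markers, the summed level was 27.4 to 34.6 FPKM in WT against 15.9 to 19.3 FPKM in PGRN KO, nearly all of it Ccr7, a gene that activated macrophages can also express. Ccr7 was at 25.5 to 32.4 FPKM in WT against 14.5 to 18.2 FPKM in PGRN KO, Xcr1 was at 0.971 to 1.34 FPKM in WT against 0.324 to 0.451 FPKM in PGRN KO, and Cd209a was at 0. Flt3 was at 0.269 to 0.361 FPKM in WT against 0.0935 to 0.145 FPKM in PGRN KO, whereas Zbtb46 (0.550 and 0.698 FPKM) and Clec9a (0.0361 and 0.0560 FPKM) were higher in the PGRN KO mean. The part of these cells in the Aldh1a2 difference was not tested.

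Aldh3a2 and Aldh3b1 encode membrane-bound enzymes for long-chain and lipid-derived aldehydes. Aldh3a2, the fatty aldehyde dehydrogenase of the endoplasmic reticulum, was at 5.97, 4.81 and 6.18 FPKM in WT against 6.41, 6.24 and 5.53 FPKM in PGRN KO. These ranges overlapped, and the difference of 0.09 ± 0.11 (SE) was smaller than its error, and 0.14 without PGRN KO replicate 6. Aldh3b1 was at 15.7, 14.6 and 18.1 FPKM in WT against 18.1, 16.8 and 26.0 FPKM in PGRN KO. Only replicate 6 stood clear of the WT range, and the difference of 0.29 ± 0.17 (SE) was 0.11 without that library. A share of 15.2% of the 31-base words of Aldh3b1 also occurs in other genes, mainly Aldh3b3, for which no fragment was counted in any library.

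Aldh18a1 and Aldh4a1 act in opposite directions on the proline pathway. Aldh18a1 encodes pyrroline carboxylate synthase, which starts proline and ornithine synthesis from glutamate, and Aldh4a1 encodes the enzyme that returns the proline breakdown product to glutamate. Aldh18a1 was at 8.90, 7.27 and 8.87 FPKM in WT against 5.81, 7.78 and 6.95 FPKM in PGRN KO. PGRN KO replicate 5 lay above WT replicate 2, so the groups overlapped, and the difference was -0.26 ± 0.13 (SE), and -0.27 without PGRN KO replicate 6. Aldh4a1 was at 0.317, 0.386 and 0.294 FPKM in WT against 0.259, 0.409 and 0.377 FPKM in PGRN KO, from 22 to 38 fragments per library. It was below the limit of 1 FPKM and its groups overlapped. The gene model Gm21969, listed at 0 FPKM in all libraries, covers 32.5% of its exonic bases on the same strand, so the level of Aldh4a1 is uncertain.

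The other 3 members break down amino acids and amines. Aldh7a1, which oxidizes an intermediate of lysine breakdown, was at 1.28, 1.34 and 0.717 FPKM in WT against 1.84, 1.96 and 2.51 FPKM in PGRN KO. The groups were separate, the difference was 0.56 ± 0.15 (SE), and it was 0.47 without PGRN KO replicate 6. Phax on the opposite strand shares 5.79% of the exonic bases of Aldh7a1, and it was at a mean of 8.94 FPKM in WT against 6.81 FPKM in PGRN KO, so that it differed in the other direction. Aldh9a1, which acts in carnitine synthesis, was at 2.14, 2.50 and 2.05 FPKM in WT against 2.53, 2.65 and 3.32 FPKM in PGRN KO. Its groups were separate by a narrow margin, with a difference of 0.24 ± 0.11 (SE), and 0.16 without replicate 6. Aldh6a1, which serves valine and thymine breakdown, was at 0.155, 0.339 and 0.278 FPKM in WT against 0.509, 0.575 and 0.360 FPKM in PGRN KO. It was below 1 FPKM, rested on 15 to 63 fragments per library, and shares 18.6% of its exonic bases with Bbof1 on the opposite strand, a gene listed at 0 FPKM in each library.

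**Figure D3:**
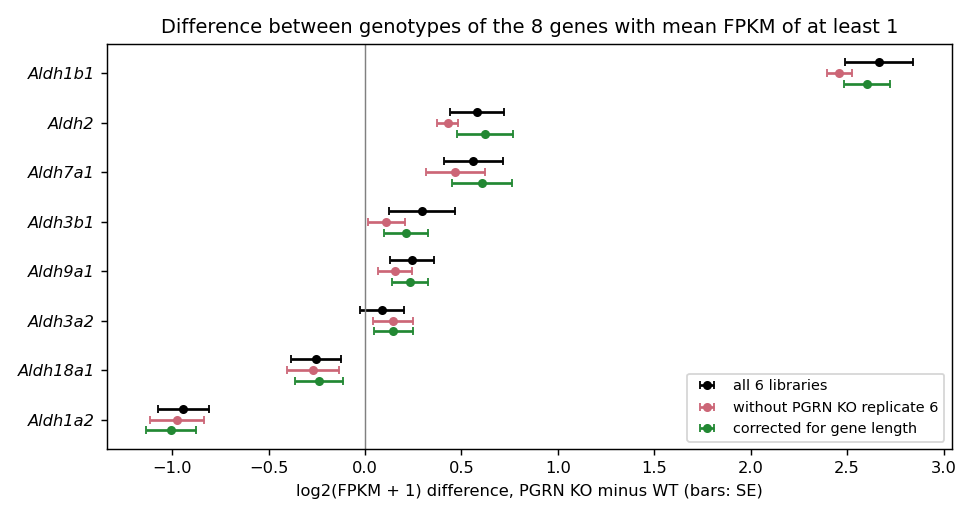
Difference in log2(FPKM + 1), PGRN KO minus WT, with bars of 1 SE, for the 8 members with a mean of at least 1 FPKM, from all 6 libraries (black), without PGRN KO replicate 6 (red) and after correction of each library for gene length (green). Aldh1b1 is at 2.46 to 2.67 and Aldh1a2 at -1.01 to -0.94 in all 3, and the values of the other 6 lie between -0.27 and 0.62.

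For several members PGRN KO replicate 6 stood apart in level from replicates 4 and 5. Relative to the mean of PGRN KO replicates 4 and 5, this library was at 1.54 for Aldh1b1, 1.49 for Aldh3b1, 1.38 for Aldh2, 1.32 for Aldh7a1, 1.28 for Aldh9a1, 1.13 for Aldh4a1, 1.09 for Aldh1a2, 1.02 for Aldh18a1, 0.874 for Aldh3a2 and 0.664 for Aldh6a1. The members below 1, Aldh3a2 and Aldh6a1, had the longest gene models, of 5619 and 5784 bases. Aldh2 and Aldh7a1 came next, with 5126 and 5181 bases, and the other 6 had 1875 to 4907 bases. The highest ratios, of Aldh1b1 and Aldh3b1, went with 2298 and 1875 bases, while Aldh1a2 had 2264 bases. The part of gene length in these ratios was not tested. After a correction of each library for gene length the differences were 2.60 for Aldh1b1, 0.62 for Aldh2, 0.61 for Aldh7a1, 0.21 for Aldh3b1 and -1.01 for Aldh1a2.

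The order of levels in FPKM, which depends on gene model length, differed between the groups. In WT it ran from Aldh2 through Aldh3b1, Aldh1b1, Aldh18a1, Aldh3a2, Aldh1a2, Aldh9a1, Aldh7a1 and Aldh4a1 to Aldh6a1, and neighbours overlapped in range for Aldh1b1 with Aldh18a1, Aldh3a2 with Aldh1a2, and Aldh4a1 with Aldh6a1. In PGRN KO Aldh1b1 had the highest mean, although its range overlapped that of Aldh2. Aldh1a2 took rank 6 in WT and rank 8 in PGRN KO, where it overlapped with Aldh7a1.

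The genes whose pattern was most like that of Aldh1b1 were sought among tested genes by Pearson correlation of log2(FPKM + 1) over the 6 libraries, a description in which 2 levels of genotype give high values for many genes. The 5 highest were Naglu (r = 0.9995), P2rx4 (0.9989), Rbm43 (0.9984), Mfge8 (0.9982) and Maoa (0.9979). Naglu, a lysosomal hydrolase of heparan sulfate, was at 40.3 to 41.4 FPKM in WT against 81.5 to 100.2 FPKM in PGRN KO. Mfge8, a bridging protein for the uptake of dying cells, was at 10.9 to 11.6 FPKM in WT against 31.6 to 44.3 FPKM in PGRN KO. Among members the value was 0.94 for Aldh2, 0.88 for Aldh7a1, 0.31 for Aldh3a2 and -0.93 for Aldh1a2.

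Next, the 11 Aldh genes that are not members were examined, of which 2 had a mean of at least 1 FPKM. Both rose in PGRN KO. Aldh1l2, a mitochondrial enzyme of folate metabolism that oxidizes formyltetrahydrofolate, was at 2.37, 2.42 and 2.63 FPKM in WT against 5.98, 6.58 and 3.19 FPKM in PGRN KO replicates 4 to 6. Replicates 4 and 5 were far above WT and replicate 6 just above it. The difference was 0.80 ± 0.22 (SE, limma adjusted p 0.038), and 1.07 with an adjusted p of 0.000534 without replicate 6. Over 14 alternatives the adjusted p was 0.000109 to 0.122. Here and below, where several libraries are listed as left out, each was left out alone and the values follow in that order. The call was lost on the TPM scale (0.0671), with no filter (0.111), without WT replicates 1, 2 and 3 (0.122, 0.118 and 0.0981) and without PGRN KO replicates 4 and 5 (0.0989 and 0.0891). D10Wsu102e shares 14.1% of its exonic bases on the opposite strand and was at 0.504 FPKM in WT against 0.275 FPKM in PGRN KO.

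Aldh16a1 was at 1.79, 1.56 and 1.72 FPKM in WT against 2.42, 2.55 and 3.41 FPKM in PGRN KO, a difference of 0.49 ± 0.12 (SE, limma adjusted p 0.0292) with separate groups. The call was lost without WT replicates 1, 2 and 3 (adjusted p 0.091, 0.109 and 0.0903), without PGRN KO replicate 5 (0.0517) and with no filter (0.0816), and the adjusted p over 14 alternatives was 0.00549 to 0.109. Pih1d1 on the opposite strand shares 2.65% of the exonic bases of Aldh16a1. It was at a mean of 3.74 FPKM in WT against 5.31 FPKM in PGRN KO, so that it differed in the same direction. Aldh1l1 was at 0.211 to 0.396 FPKM and Aldh8a1 at 0.0132 to 0.0631 FPKM over all libraries. Aldh1a1 had 2 fragments and Aldh5a1 had 1 fragment in all. Aldh1a3, Aldh1a7, Aldh3a1, Aldh3b2 and Aldh3b3 had none, which allows up to 3 fragments over the 6 libraries, or 0.0063 to 0.015 FPKM, by counting error alone. Aldh1a1 and Aldh1a3, which also encode retinal dehydrogenases, were thus at or near 0 in these cells in both genotypes.

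To see what surrounds the members, 6 lists of pathway genes were read from the fit across all genes. In that fit 24.2% of the 8882 tested genes passed a limma adjusted p of 0.05, 10.4% higher and 13.8% lower in PGRN KO. Of 137 list entries 73 were tested and 22 passed, 11 higher and 11 lower. The number that passed in all tested genes was 2151, and leaving out WT replicates 1, 2 and 3 and PGRN KO replicate 4 in turn gave 698, 851, 877 and 1370, and 3645 genes passed without PGRN KO replicate 6. List counts moved with it and are given without each library.

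**Figure D4:**
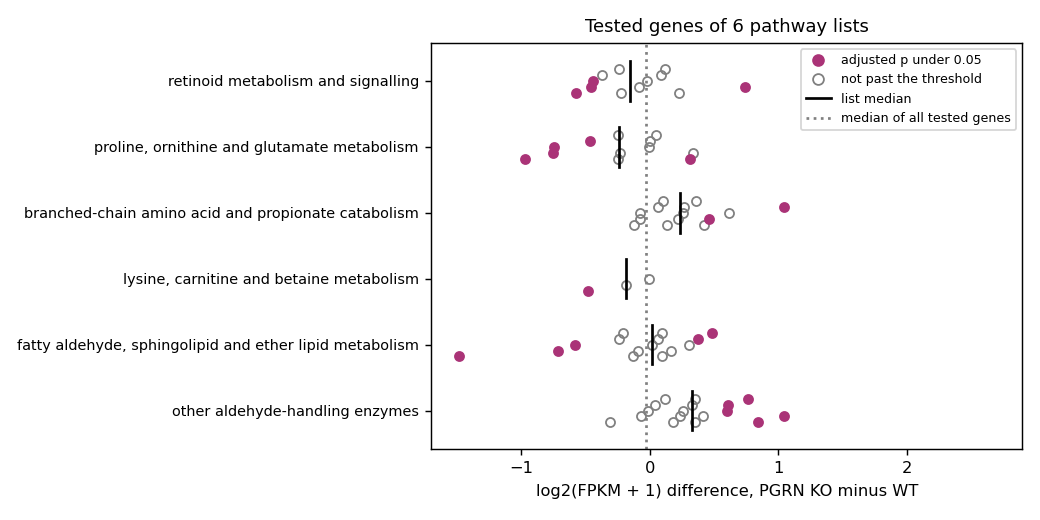
Difference in log2(FPKM + 1), PGRN KO minus WT, of each tested gene in 6 pathway lists, filled where the limma adjusted p was under 0.05 and open otherwise, with the list median as a black bar and the median of all tested genes as a dotted line. All 5 filled genes among other aldehyde-handling enzymes lie to the right of 0, and 4 of 5 in the proline, ornithine and glutamate list lie to the left.

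Of 28 genes of retinoid metabolism and signalling, 12 were tested, of which 1 rose, 3 fell and 8 did not pass. The median difference was -0.15 beside -0.03 over all tested genes. Rdh14, a retinal reductase, rose from 1.16 to 2.62 FPKM (0.74 ± 0.12 SE, limma adjusted p 0.00657). Rara, the retinoic acid receptor alpha, fell from 16.7 to 10.9 FPKM with a limma adjusted p of 0.0129, which was 0.0637 and 0.0604 without WT replicates 1 and 3. Of the retinol dehydrogenases, Rdh11 fell from 24.9 to 17.9 FPKM (limma adjusted p 0.0344) and Rdh13 from 1.63 to 0.915 FPKM (0.0206). Rdh13 was over the limit of 1 FPKM through WT only, so its test is not independent of the filter. The Rdh11 call was lost without WT replicates 1 and 2 (0.125 and 0.117) or PGRN KO replicates 4 and 5 (0.0685 and 0.0818), and that of Rdh13 without WT replicates 1, 2 and 3 (0.0699, 0.0803 and 0.082) or PGRN KO replicate 4 (0.0619). In the list 1, 2 and 2 genes passed without WT replicates 1, 2 and 3, and 2, 3 and 6 without PGRN KO replicates 4, 5 and 6.

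Of 19 genes of proline, ornithine and glutamate metabolism, 18 were in the table, 12 were tested, 1 rose and 4 fell, with a median difference of -0.24. Arg1 and Arg2, the arginases that feed ornithine into the pathway of Aldh18a1, fell from 204 to 103 FPKM and from 76.3 to 45.1 FPKM. Their differences were -0.97 ± 0.14 (SE) and -0.74 ± 0.11 (SE) with limma adjusted p of 0.00559 and 0.00536, and both calls held in 15 of 15 alternatives. Pepd, which releases proline from dipeptides, fell from 19.6 to 14.0 FPKM (limma adjusted p 0.0413), and its call was lost without WT replicates 1, 2 and 3 (0.132, 0.142 and 0.102) or PGRN KO replicates 4 and 5 (0.107 and 0.1). In the list 2, 2 and 3 genes passed without WT replicates 1, 2 and 3, and 3, 3 and 8 without PGRN KO replicates 4, 5 and 6.

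Around Aldh6a1, 14 of 25 genes of branched-chain amino acid and propionate breakdown were tested, 2 rose and none fell, a share of 14.3% beside 24.2% of all genes. Ppm1k, the phosphatase that activates the branched-chain ketoacid dehydrogenase, rose from 1.68 to 4.58 FPKM (1.05 ± 0.13 SE, limma adjusted p 0.00309). Bckdk, the kinase that inactivates the same complex, rose from 1.39 to 2.27 FPKM (limma adjusted p 0.0366), and its call was lost without WT replicates 1, 2 and 3 (0.111, 0.121 and 0.0619) or PGRN KO replicates 4 and 5 (0.0633 and 0.0727). In the list 1 gene passed with each of these 5 libraries left out, and 6 passed without PGRN KO replicate 6. Of 15 genes of lysine, carnitine and betaine metabolism, around Aldh7a1 and Aldh9a1, only 3 were tested. Shmt1, the cytosolic serine hydroxymethyltransferase, fell from 1.49 to 0.783 FPKM (limma adjusted p 0.0336), and without WT replicates 1, 2 and 3 or PGRN KO replicates 4 and 5 no gene of the list passed (Shmt1 0.0988, 0.116, 0.0696, 0.0522 and 0.0693). Without PGRN KO replicate 6, 2 genes passed. Shmt1, too, was over the limit of 1 FPKM through WT only.

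Of 19 genes of fatty aldehyde, sphingolipid and ether lipid metabolism, 15 were tested, 2 rose and 3 fell, with a median of 0.02, which was -0.002 without PGRN KO replicate 6. Cyp4f18, which hydroxylates fatty acids and leukotrienes, was at 8.41, 9.55 and 9.83 FPKM in WT against 1.71, 2.62 and 4.02 FPKM in PGRN KO (-1.48 ± 0.21 SE, limma adjusted p 0.0053). Sgpl1, the lyase that yields the fatty aldehyde used by Aldh3a2, fell from 165 to 101 FPKM (-0.72 ± 0.13 SE, limma adjusted p 0.0119), and its adjusted p was 0.0605 and 0.0563 without WT replicates 1 and 2. Degs1, the dihydroceramide desaturase, fell from 78.3 to 52.0 FPKM (limma adjusted p 0.00509). Cyp4f13 rose from 5.08 to 7.53 FPKM (limma adjusted p 0.0189), a call lost without WT replicates 1, 2 and 3 (0.0648, 0.0767 and 0.0795). In the list 2, 2 and 3 genes passed without WT replicates 1, 2 and 3, and 4, 5 and 8 without PGRN KO replicates 4, 5 and 6.

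Of 31 other enzymes that form or remove aldehydes, 17 were tested, 5 rose and none fell, with a median of 0.33, and 0.16 without PGRN KO replicate 6. Maoa, the monoamine oxidase that forms aldehydes from amines, was at 1.15 to 1.18 FPKM in WT against 2.95 to 4.18 FPKM in PGRN KO (1.05 ± 0.12 SE, limma adjusted p 0.00244). Xdh, the xanthine dehydrogenase, rose from 5.67 to 11.1 FPKM and Gstm1, a glutathione transferase, from 61.6 to 106.5 FPKM, with limma adjusted p of 0.00866 and 0.00757. Akr1b3, aldose reductase, rose from 2.73 to 4.72 FPKM (limma adjusted p 0.0218), and its call was lost without WT replicates 1, 2 and 3 (0.0943, 0.0819 and 0.0582). In the list 3 genes passed without WT replicates 1, 2 or 3, and 5, 4 and 7 without PGRN KO replicates 4, 5 and 6.

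Genes within 250000 bases of a member were read from the same fit. Of 48 tested neighbours 14 passed, 7 higher and 7 lower, a share of 29.2% beside 24.2% of all tested genes. Without WT replicates 1, 2 and 3 the number was 5, 5 and 6, and it was 8 and 25 without PGRN KO replicates 4 and 6. Of the 3 tested neighbours of Aldh1b1, 2 rose. Tdrd7, a tudor domain protein of RNA granules, lies 160730 bases away and rose from 13.7 to 25.8 FPKM (0.87 ± 0.12 SE, limma adjusted p 0.00444). Stra6l, 44060 bases away and a relative of the retinol transporter Stra6, rose from 1.33 to 2.20 FPKM (0.44 ± 0.13 SE, limma adjusted p 0.0454). The Stra6l call was lost without WT replicates 1, 2 and 3 (0.136, 0.126 and 0.129) or PGRN KO replicates 4 and 5 (0.117 and 0.111).

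Markers of other cells that the preparation could hold moved with genotype, and their part in the members' differences was not tested. The 6 B cell markers summed to 4.79 to 6.08 FPKM in WT against 19.0 to 24.1 FPKM in PGRN KO, with Ighm at means of 3.48 and 13.4 FPKM. Cd79a and Cd79b were at 0.960 and 0.633 FPKM in the WT mean and reached the limit of 1 FPKM through PGRN KO, so no count of tested genes is given. The 7 mast cell markers summed to 2.29 to 3.19 FPKM in WT against 9.72 to 14.0 FPKM in PGRN KO, where Tpsb2 and Cma1 rose and Ms4a2 was at 0. The means of Kit, the receptor that marks these cells, went the other way, from 0.345 FPKM in WT to 0.210 FPKM in PGRN KO. The 7 neutrophil markers were at 60.7 to 66.8 FPKM in WT against 32.5 to 36.4 FPKM in PGRN KO, nearly all of it S100a8 and Csf3r, and Ly6g was at 0. Ltf, S100a9, Retnlg and Camp were at or below 0.443 FPKM in each library. Of these, S100a9, Retnlg and Camp were higher in the PGRN KO mean and Ltf was lower. The 6 fibroblast markers were at 0.864 to 0.901 and 1.86 to 3.45 FPKM, the 6 T cell markers at 2.32 to 2.73 and 3.66 to 5.13 FPKM, and the 3 eosinophil markers at 0.0214 to 0.199 and 0 to 0.0415 FPKM, with Epx and Prg2 at 0. The 7 macrophage markers were at 7090 to 7420 FPKM in WT against 7240 to 9720 FPKM in PGRN KO, with PGRN KO replicate 6 the highest, and Lyz2 made up most of the sum. Within the list the mean of Csf1r was 32.5 FPKM in WT against 24.7 FPKM in PGRN KO (limma adjusted p 0.0178), and that of Mertk 1.41 and 3.24 FPKM (0.0064), in opposite directions. The 6 large peritoneal macrophage markers were at 7.32 to 7.85 FPKM in WT against 9.50 to 10.4 FPKM in PGRN KO, nearly all of it Gata6 and Icam2. Icam2 rose from 3.10 to 5.10 FPKM (limma adjusted p 0.00914), whereas the ranges of Gata6 overlapped. Ltbp1 was higher in the PGRN KO mean. The means of Timd4, Alox15 and Selp, each at or below 0.204 FPKM in all libraries, went the other way.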

How the data were processed

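Per the labels, RNA was extracted with Trizol and libraries were made with the NEBNext Ultra RNA kit. The submitters' processing notes name CASAVA, HISAT2 2.0.5, featureCounts 1.5.0-p3, DESeq2 1.20.0 and the build mm10 (GRCm38). The methods of the study name another counter and other versions of the aligner and of the differential expression package, and neither source says if fragments were counted by strand. The authors deposited 1 table of FPKM for 54532 genes in 6 libraries. From FPKM and gene length, whole fragments were recovered for 100.0% of values, within 0.001 of a step, giving 15996786 to 17551619 fragments per library. The library size the authors divided by was 0.925 to 1.09 times these sums.

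Genes with a mean of at least 1 FPKM (8882) were tested on log2(FPKM + 1) with limma 3.58.1 in R 4.3.3, all 6 libraries in 1 fit, with Benjamini-Hochberg adjustment over all tested genes at 0.05. Gene models, overlaps and shared 31-base words came from a GENCODE annotation of GRCm38, in which 99.93% of gene identifiers were found, and promoter windows from RefSeq. The 10 members and all lists were chosen with earlier results of these data known. Named genes were Grn, all Aldh genes, in each list up to 4 genes that passed with the largest difference, the neighbours of Aldh1b1 that passed and the 5 genes most like it. Marker genes, Phax, Bbof1, Gm21969, Gm42879, Gm8783, Pih1d1 and D10Wsu102e were named outside this rule. A gene that the rule names is not reported here. RefSeq promoter windows were matched by symbol for 8 members, all but Aldh2 and Aldh7a1. Aldh2 had no entry, and windows on chromosome 18, where Aldh7a1 lies, were left out of the motif search of the members. Fits were tested on simulated data. Alternatives were other pseudocounts, filters, scalings, sample quality weights, voom on recovered fragments, a gene length correction and each library left out. Counting error sets the limits given for 0 fragments.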

Additional observations from a re-analysis of the deposited data

How the results depend on the processing

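The median difference of the members was 0.27, and 0.15 to 0.34 with 1 library left out, lowest without PGRN KO replicate 6. The sign changed for Aldh3a2, whose difference was -0.005 without WT replicate 2, and for the median of the fatty aldehyde list, which was -0.002 without PGRN KO replicate 6. Aldh1b1 was between 2.46 and 2.81 over 15 alternatives and Aldh1a2 between -1.26 and -0.85 over 14. With 1 library left out, the number of genes that passed was 698 to 3645 over all tested genes, 0 to 2 for other Aldh genes, 1 to 6 for retinoid, 2 to 8 for proline, 1 to 6 for branched-chain amino acid, 0 to 2 for lysine, 2 to 8 for fatty aldehyde and 3 to 7 for other aldehyde-handling genes, and 5 to 25 for neighbours. With no filter on low FPKM 1366 genes passed over all, 0 other Aldh genes, 0 of the lysine list, 3 aldehyde-handling genes and 8 neighbours. With a mean of at least 5 FPKM no other Aldh gene was left to test (0 passed), and 2 of 7 retinoid, 0 of 3 branched-chain, 0 of 1 lysine and 3 of 9 aldehyde-handling genes and 7 of 25 neighbours passed, with fewer genes tested by construction. On the TPM scale they were 1 other Aldh gene, 2 retinoid, 3 proline, 0 lysine genes and 9 neighbours. With the sum of fragments as library size 4 branched-chain and 0 lysine genes passed. With sample quality weights, which gave PGRN KO replicate 6 a weight of 0.0899, 4225 genes passed over all, 7 retinoid, 8 proline, 7 branched-chain, 2 lysine, 8 fatty aldehyde and 9 aldehyde-handling genes and 29 neighbours. Branched-chain genes that passed were 4 with voom and 7 with the gene length correction. Of the genes named outside the members, Akr1b3, Bckdk, Pepd, Rdh11, Rdh13, Shmt1, Stra6l, Aldh1l2 and Aldh16a1 did not pass with no filter, Bckdk, Rdh11, Rdh13, Shmt1, Stra6l and Aldh1l2 on the TPM scale, and Pepd, Rdh13 and Shmt1 with the sum of fragments as library size. The cause of these shifts was not tested. No paired analysis was possible because the replicate numbers of WT (1 to 3) and PGRN KO (4 to 6) share no number. Aldh4a1 and Aldh6a1, both below 1 FPKM, rested on 15 to 63 fragments per library, which limits their precision.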
